A study of Homo sapiens with 28 samples.

Results

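The collagen and laminin chains are the protein-coding genes whose symbols name a collagen alpha chain or a laminin alpha, beta or gamma chain. There were 56 of them among 63139 genes, with 44 collagen and 12 laminin chains. They were measured in HepG2 cells, a human liver tumour line of hepatocyte type, by sequencing of poly(A)-selected RNA. Cells were kept without serum for 24 h and then exposed for another 24 h to 1 of 5 chemicals or a vehicle. The groups were CdCl2 (cadmium chloride, 0.5 µM) with H2O as its vehicle, and TCDD (a dioxin, 100 nM), PFOS (perfluorooctane sulfonate, 10 µM), BPA (bisphenol A, 75 µM) and TBTCl (tributyltin chloride, 0.1 µM) with DMSO (at most 0.1%) as theirs. Each of the 7 groups had 4 libraries, 28 in all, all from the same line. The labels describe 4 independent experiments and do not tie a replicate number to an experiment, so p-values measure the spread between these libraries. The submitters note a swap of the labels of 2 groups, TCDD and PFOS, and the corrected labels are used. CYP1A1, the standard target of the dioxin receptor, stood at 2839 to 6407 CPM (counts scaled to library size) in the TCDD libraries and at 1.49 to 462 CPM in the other 24.

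Collagens are built from 3 alpha chains wound into a triple helix. Fibrillar collagens form the load-bearing fibres of connective tissue, collagen IV forms the network of basement membranes, and smaller members sit on fibres, at cell surfaces or in basement membrane zones. Laminins are cross-shaped trimers of an alpha, a beta and a gamma chain that start basement membrane assembly and bind integrins and dystroglycan. In the liver most fibrillar collagen comes from stellate cells and fibroblasts, and hepatocytes contribute less. Some collagens are made of a single kind of chain, while others, and the laminins, need partner chains from other genes.

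Libraries held between 28.9 M and 66.0 M counts (median 46.5 M). The 8 hepatocyte and hepatoblast markers (such as ALB and APOA1) were all expressed, with a summed level of 24616 to 66558 CPM. Of 9 stellate cell and fibroblast markers 4 reached 10 counts in a library, at 36.6 to 61.0 CPM in sum, and THY1 was at 0 in every group. The endothelial markers summed to 5.32 to 9.98 CPM. All libraries are from the same line, so these markers are read as levels in that line and not as shares of cell types. Bulk values do not show whether a marker's RNA comes from all cells or from some. TBTCl replicate 4 stood apart from the other 27 libraries on the third principal component.

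Of the 56 chains, 35 reached 10 counts in at least 1 library, 25 of them collagens and 10 laminins. The 21 others are taken as not expressed. They include COL1A2, the partner of COL1A1 in collagen I; COL4A1, the partner of COL4A2; and COL4A3 and COL4A4, partners of COL4A5. COL9A1, COL11A1, COL6A5, COL6A6, COL8A1, COL10A1, COL12A1, COL14A1, COL15A1, COL19A1, COL21A1, COL22A1, COL23A1, COL25A1, COL28A1 and LAMA4 were also among them. COL19A1 had no count in any library. The limit of 10 counts fell between COL28A1, with at most 9 counts, and LAMB4, with at most 11. COL10A1 (8) and COL14A1, COL21A1 and COL23A1 (7 each) lay just under it, and COL3A1 and COL5A1 (12 each), COL20A1 (13) and COL17A1 (15) just over it. A level of 3 counts, taken as the floor, was 0.0434 to 0.104 CPM, depending on the library.

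Levels of different genes are compared as CPM per kb of exon. COL9A3, a chain of the fibre-associated collagen IX, was highest in DMSO at 49.8 ± 7.54 CPM per kb (SD, n = 4). LAMB1 followed at 44.6 ± 3.02 CPM per kb and COL18A1, the basement membrane collagen that carries endostatin, at 43.1 ± 4.63 CPM per kb. LAMB2 (32.9 CPM per kb), LAMA5 (32.5) and LAMC1 (32.2) came next. Each of these 6 overlapped its neighbour in the order. A gap followed LAMC1: COL2A1, the chain of cartilage collagen II, had 17.0 CPM per kb and COL27A1, a fibrillar chain of cartilage, 14.3 CPM per kb. These 8 chains held 88.9 ± 0.946% of the summed level per kb of all chains in DMSO.

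COL9A2 (8.82 CPM per kb), COL26A1 (5.43), COL4A5 (4.72), COL6A1 (4.54), COL4A6 (2.60), COL16A1 (2.32) and COL7A1 (1.59) formed the middle of the order. The remaining 20 chains stayed below 1 CPM per kb in DMSO, from LAMC3 at 0.790 down to COL13A1 at 0.00269. COL1A1, the main fibrillar chain of scar tissue, was among them at 0.213 CPM per kb, and COL3A1 at 0.0125.

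**Figure D1:**
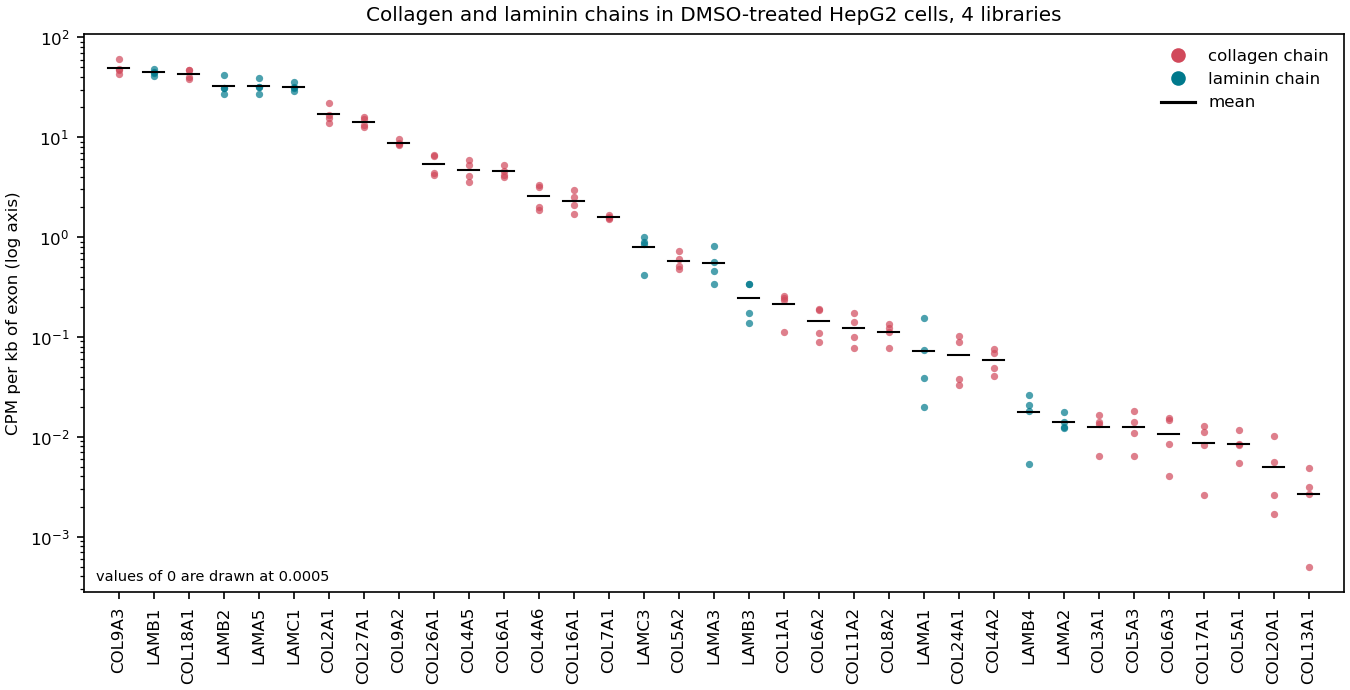
Level of the 35 expressed collagen and laminin chains in the 4 DMSO libraries, in CPM per kb of exon on a log axis, with a point per library and a line at the mean. The 6 leading chains lie between 32.2 and 49.8 CPM per kb, and 20 chains lie below 1 CPM per kb.

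A single chain led within the laminin alpha and gamma classes. LAMA5 held 98.1 ± 0.841% of the laminin alpha level per kb in DMSO, and LAMC1 held 97.6 ± 0.880% of the gamma level. The beta class was shared by LAMB1, with 57.6 ± 5.08%, and LAMB2, with 42.1 ± 5.18%. These are the chains of the alpha5 laminins of epithelial basement membranes. LAMA5 kept 97.5% or more of the alpha level, as a group mean, in each of the 7 groups. The LAMB1 share was 48.7 ± 4.32% in TCDD, 49.2 ± 3.94% in TBTCl and 53.6 ± 2.15% in BPA, against 57.6 ± 5.08% in DMSO, and no difference between these shares was tested.

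Of the 35 expressed chains 30 had enough counts to be tested, within 18849 genes. COL3A1, COL5A1, COL17A1, COL20A1 and LAMB4 were too low. A chain is called where the adjusted p of edgeR's quasi-likelihood test (Benjamini-Hochberg over all tested genes) is under 0.05. COL13A1 and COL5A3 passed the filter on low counts mainly through their TCDD libraries, where 4 and 3 of 4 libraries reached its cutoff of 0.215 CPM, so a difference of these chains in TCDD was in part built in.

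TCDD raised 7 collagen chains and lowered 2, and none of the 9 tested laminin chains was called. The fibrillar chain COL27A1 was the most abundant chain called, 2.31-fold higher, and the transmembrane chain COL13A1 appeared where it was almost absent. COL26A1, COL16A1, COL7A1, COL8A2 and COL5A3 were also higher, and COL2A1 and COL5A2 were lower. The 9 calls are 30.0% of the 30 tested chains, while 9.25% of all tested genes were called in this comparison (6.45% higher and 2.80% lower in TCDD). The chains' share includes COL13A1 and COL5A3, which were tested mainly because of their TCDD libraries, so it was in part built in. The median log2 fold change was -0.06 over the tested chains and -0.01 over all tested genes. The libraries of TCDD and DMSO did not overlap for 9 chains, and for 15.3% of all tested genes. These were the called chains other than COL8A2, and COL6A2, which was not called.

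COL27A1 had 553, 485, 370 and 435 CPM in the TCDD libraries, against 222, 215, 184 and 179 CPM in the DMSO libraries. Every TCDD library was above every library of the other 6 groups, the highest of which had 321 CPM. The log2 fold change was 1.20 ± 0.26 (SE), with an edgeR adjusted p of 0.00227.

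COL13A1 encodes a transmembrane collagen found at adhesion sites and at the neuromuscular junction. It had 27, 157, 77 and 91 counts in the TCDD libraries, against 0, 1, 1 and 2 counts in the DMSO libraries. In CPM these were 0.537 to 2.54 in TCDD, and at most 0.289 in any library of another group. The edgeR log2 fold change of 6.50 ± 0.72 (adjusted p = 2.41e-07) rests on 4 counts in DMSO and depends on how so low a level is fitted.

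COL26A1, which encodes a secreted protein with short collagen stretches, had 31.8, 29.4, 29.8 and 34.8 CPM in TCDD, against 20.6, 13.9, 13.3 and 20.7 CPM in DMSO. The groups did not overlap, and every TCDD library was above the other 24 libraries, which reached 26.6 CPM. On the log2 scale the change was 0.88 ± 0.24 (edgeR adjusted p = 0.0201).

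COL16A1, a fibre-associated collagen, had 43.0, 36.4, 31.6 and 32.0 CPM in TCDD, against 15.7, 27.6, 23.2 and 19.5 CPM in DMSO. COL7A1, which forms the anchoring fibrils under epithelia, had 26.4, 32.3, 34.8 and 25.5 CPM in TCDD, against 17.7, 17.0, 17.3 and 18.5 CPM in DMSO. Neither pair of groups overlapped, with log2 fold changes of 0.73 ± 0.21 (edgeR adjusted p = 0.0247) and 0.76 ± 0.24 (edgeR adjusted p = 0.0455). The H2O libraries reached 39.4 CPM for COL16A1 and 28.8 CPM for COL7A1, which is within the TCDD range. With H2O in place of DMSO, chosen after seeing the data, both calls were lost, at log2 fold changes of 0.28 (edgeR adjusted p = 0.501) and 0.26 (edgeR adjusted p = 0.604), and so was COL26A1, at 0.68 (edgeR adjusted p = 0.0880).

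Among the low chains, COL8A2, a network-forming collagen of Descemet's membrane, averaged 1.29 ± 0.912 CPM in TCDD and 0.522 ± 0.114 CPM in DMSO (SD, n = 4 each; log2 fold change 1.30 ± 0.41, edgeR adjusted p = 0.0451). The groups overlapped, and TCDD replicate 2 stood highest at 2.59 CPM; without it the log2 fold change was 0.69 (edgeR adjusted p = 0.428). COL5A3, a minor fibrillar chain, averaged 0.334 ± 0.131 CPM in TCDD and 0.0837 ± 0.0332 CPM in DMSO (log2 fold change 2.06 ± 0.53, edgeR adjusted p = 0.0115), from 65 counts in TCDD and 17 in DMSO over all 4 libraries.

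COL2A1 fell in TCDD, to 57.6, 64.4, 57.0 and 75.9 CPM, against 93.5, 103, 111 and 146 CPM in DMSO. The groups did not overlap, and the log2 fold change was -0.83 ± 0.22 (edgeR adjusted p = 0.0123). COL5A2, a chain of the fibril-nucleating collagen V, averaged 2.27 ± 0.748 CPM in TCDD and 4.31 ± 0.832 CPM in DMSO, a log2 fold change of -0.92 ± 0.25 (edgeR adjusted p = 0.0163).

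The TCDD calls moved with single libraries. The count of 9 was 5 without DMSO replicate 2, 4 without DMSO replicate 4 and 5 without TCDD replicate 2. COL13A1 and COL27A1 kept their calls in every alternative that gave a value, and COL7A1 lost its call whichever of the 8 libraries was left out. COL8A2 lost it without any DMSO library or without TCDD replicate 2 or 3, and COL16A1 without DMSO replicate 1 or 4 or TCDD replicate 1 or 2. COL26A1 lost it without DMSO replicate 2 or 3 or TCDD replicate 4, COL5A2 without DMSO replicate 2 or TCDD replicate 2 or 3, and COL2A1 and COL5A3 without DMSO replicate 4.

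The abundant laminin chains and the other leading collagens were not called in TCDD. COL9A3 had 223, 375, 337 and 313 CPM in TCDD, against 226, 209, 236 and 293 CPM in DMSO, a log2 fold change of 0.37 ± 0.18 (edgeR adjusted p = 0.230). COL18A1 had 314, 413, 422 and 397 CPM in TCDD, against 324, 343, 402 and 399 CPM in DMSO. The groups of both chains overlapped.

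LAMA5 had 499, 363, 343 and 511 CPM in TCDD, against 387, 458, 555 and 459 CPM in DMSO. LAMB1 had 297, 291, 344 and 333 CPM in TCDD, against 365, 336, 356 and 395 CPM in DMSO, with an interval of -0.51 to 0.12 for the log2 fold change (95%). Both chains overlapped between the groups. LAMB2 had 275, 315, 246 and 283 CPM in TCDD, against 185, 216, 289 and 213 CPM in DMSO (log2 fold change 0.31 ± 0.16, edgeR adjusted p = 0.260). LAMC1 had 281, 192, 239 and 284 CPM in TCDD, against 270, 264, 245 and 301 CPM in DMSO, with an interval of -0.57 to 0.33. Of the 9 tested laminins 0 had an unadjusted p under 0.05 in TCDD, and DESeq2 called 0.

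**Figure D2:**
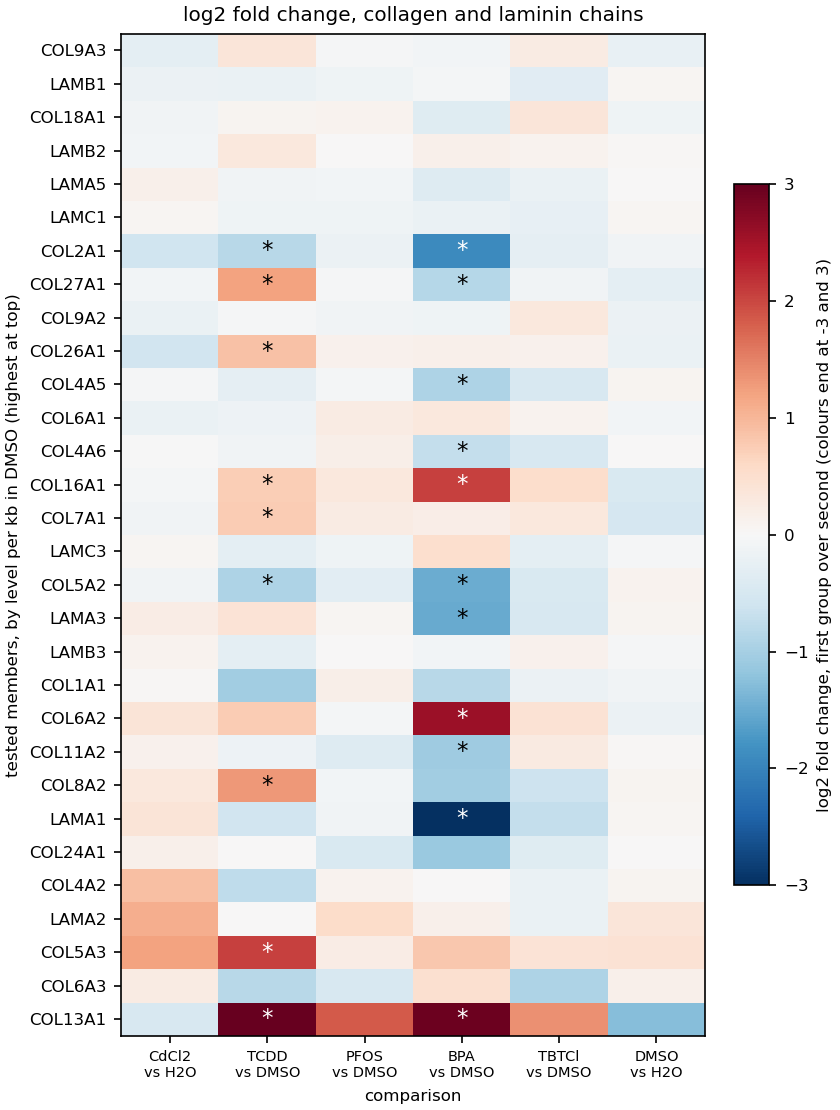
Log2 fold change of the 30 tested chains (rows, highest DMSO level per kb at the top) in 6 comparisons (columns, first group over second); red is higher and blue lower in the first group, colours end at -3 and 3, and a star marks an edgeR adjusted p under 0.05. Stars stand in the TCDD column (9) and the BPA column (11) and in no other.

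The promoters of 4 of the chains raised by TCDD are shown because the receptor of TCDD, the aryl hydrocarbon receptor, binds DNA elements with the core GCGTG. The sequences are from RefSeq, build GRCh38.p14, upstream of the start and 5′ to 3′ on the gene's strand. Exon bases of GENCODE 29 were left out. They are chr10:69801656-69801866 (plus strand) for COL13A1, chr7:101362625-101362819 (plus strand) for COL26A1, chr1:36125223-36125472 (minus strand) for COL8A2 and chr9:114155287-114155536 (plus strand) for COL27A1. Capitals mark GCGTG or its reverse complement CACGC.
COL13A1: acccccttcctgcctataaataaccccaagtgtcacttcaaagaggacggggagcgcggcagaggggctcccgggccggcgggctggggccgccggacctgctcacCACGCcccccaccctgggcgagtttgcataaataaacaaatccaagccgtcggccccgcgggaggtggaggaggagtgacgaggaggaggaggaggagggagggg
COL26A1: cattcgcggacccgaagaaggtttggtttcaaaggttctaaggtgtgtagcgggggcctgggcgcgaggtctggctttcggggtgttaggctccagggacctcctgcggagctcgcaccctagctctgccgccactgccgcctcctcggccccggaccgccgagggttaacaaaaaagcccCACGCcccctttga
COL8A2: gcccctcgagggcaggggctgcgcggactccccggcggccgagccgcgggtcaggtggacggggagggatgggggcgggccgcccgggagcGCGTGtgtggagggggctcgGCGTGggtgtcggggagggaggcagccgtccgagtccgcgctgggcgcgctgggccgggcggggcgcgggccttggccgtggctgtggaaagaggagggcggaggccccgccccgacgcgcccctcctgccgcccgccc
COL27A1: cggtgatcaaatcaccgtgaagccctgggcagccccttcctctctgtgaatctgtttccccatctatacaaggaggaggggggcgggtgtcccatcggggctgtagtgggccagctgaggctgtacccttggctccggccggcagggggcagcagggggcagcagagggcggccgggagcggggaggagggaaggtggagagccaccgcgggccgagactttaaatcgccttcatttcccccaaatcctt
The core was found in 3 of the 7 raised chains, searched on both strands in windows of 250 bases, and in 32.2% of all 35116 promoter windows of that length. COL27A1, the most abundant of the raised chains, held none in its window. A match is a description of letters and not a site.

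BPA raised 3 chains and lowered 8. COL16A1 rose 4.14-fold, COL6A2 rose 5.94-fold at a low level, and COL13A1 was higher at the edge of detection. COL2A1, COL27A1, the basement membrane pair COL4A5 and COL4A6, COL5A2, COL11A2, LAMA1 and LAMA3 fell. The 11 calls are 36.7% of the 30 tested chains, close to the 35.0% of all tested genes called in BPA (17.3% higher and 17.6% lower). The median log2 fold change was -0.11 over the tested chains and -0.02 over all tested genes. The libraries of BPA and DMSO did not overlap for 12 chains, the 11 called and COL8A2, and for 37.2% of all tested genes. Upper-quartile scaling gave 2239 higher and 4345 lower genes in BPA, in place of 3268 and 3320.

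COL16A1 had 102, 108, 93.4 and 52.7 CPM in the BPA libraries, against 15.7, 27.6, 23.2 and 19.5 CPM in the DMSO libraries. All 4 BPA libraries were above the other 24, whose highest value was 43.0 CPM. The log2 fold change was 2.05 ± 0.22 (edgeR adjusted p = 1.11e-07).

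COL6A2, which pairs with COL6A1 and COL6A3 in collagen VI, had 5.65, 7.97, 2.52 and 2.11 CPM in BPA, against 1.00, 1.02, 0.482 and 0.594 CPM in DMSO. There was no overlap, though the lowest BPA library was only just above the highest of the other 24, at 2.08 CPM. The log2 fold change was 2.57 ± 0.40 (edgeR adjusted p = 2.19e-05). Its partners were not called: COL6A1 averaged 30.4 ± 8.20 CPM in BPA and 24.2 ± 3.13 CPM in DMSO, and COL6A3 0.285 and 0.210 CPM. Per kb, COL6A2 stood at 0.141 of the COL6A1 level in BPA, against 0.0312 in DMSO, as the mean of 4 library ratios.

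COL13A1 had 9, 3, 1 and 14 counts in BPA, against 0, 1, 1 and 2 counts in DMSO. Of the 4 BPA libraries 2 were at or under the floor of 3 counts. The edgeR log2 fold change was 2.93 ± 0.88 (adjusted p = 0.0114), and with H2O in place of DMSO it was 1.66 (edgeR adjusted p = 0.100), where H2O had 3, 1, 3 and 2 counts. Without BPA replicate 4 the call was lost.

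COL2A1 had 25.5, 21.0, 36.4 and 37.7 CPM in BPA, against 93.5, 103, 111 and 146 CPM in DMSO. All 4 BPA libraries were below the other 24, the lowest of which had 57.0 CPM. This gave a log2 fold change of -1.91 ± 0.22 (edgeR adjusted p = 4.74e-07).

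COL27A1 had 143, 87.7, 106 and 104 CPM in BPA, against 222, 215, 184 and 179 CPM in DMSO. The groups did not overlap, and the direction was the opposite of that in TCDD. This gave a log2 fold change of -0.86 ± 0.26 (edgeR adjusted p = 0.0118).

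COL5A2 averaged 1.52 ± 0.216 CPM in BPA and 4.31 ± 0.832 CPM in DMSO, a log2 fold change of -1.49 ± 0.26 (edgeR adjusted p = 8.05e-05). COL11A2, a chain of cartilage collagen XI, averaged 0.382 ± 0.115 CPM in BPA and 0.826 ± 0.284 CPM in DMSO (log2 fold change -1.07 ± 0.30, edgeR adjusted p = 0.00730).

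**Figure D3:**
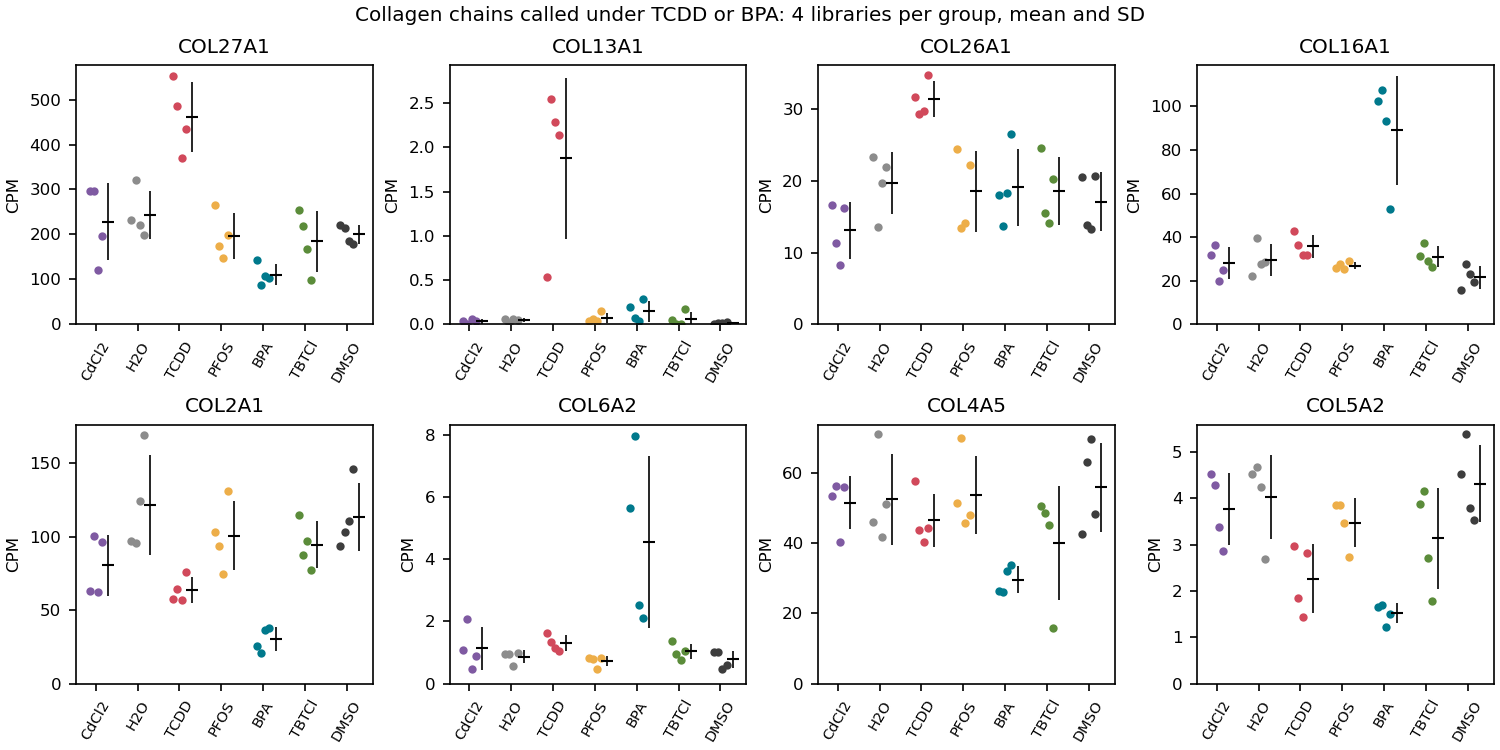
CPM of 8 collagen chains called in TCDD or BPA, with a point per library and the mean and SD beside the points, for the 7 groups (4 libraries each). The TCDD libraries are above all others for COL27A1, COL13A1 and COL26A1, and the BPA libraries for COL16A1 and COL6A2, while BPA is below all others for COL2A1.

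COL4A5 and COL4A6 encode chains that form the alpha5-alpha5-alpha6 network of collagen IV, and the partners for the other collagen IV networks were not expressed (COL4A1, COL4A3, COL4A4) or low (COL4A2, 1.12 CPM in DMSO). COL4A5 had 26.3, 26.2, 32.0 and 33.8 CPM in BPA, against 42.6, 63.2, 69.7 and 48.2 CPM in DMSO. COL4A6 had 12.8, 16.6, 13.1 and 16.3 CPM in BPA, against 17.4, 30.5, 29.8 and 18.7 CPM in DMSO. Neither pair of groups overlapped. The log2 fold changes were -0.92 ± 0.24 for COL4A5 (edgeR adjusted p = 0.00498) and -0.71 ± 0.26 for COL4A6 (edgeR adjusted p = 0.0373). The call of COL4A6 was lost in 4 of 8 fits that left out a library, those without DMSO replicates 2 and 3 and BPA replicates 1 and 3.

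The 2 genes lie head to head on chromosome X, on opposite strands, with 379 bases between a RefSeq start of COL4A6 at 108439458 and that of COL4A5 at 108439838. RefSeq lists another COL4A6 start, farther from COL4A5, whose window (chrX:108438423-108438672, minus strand) held 0 CCAAT boxes. The upstream bases of both are shown because they share this stretch, and are overlapping windows of the same DNA. They are from RefSeq, build GRCh38.p14, chrX:108439588-108439837 (plus strand) and chrX:108439498-108439708 (minus strand), each 5′ to 3′ on its own strand. Capitals mark the CCAAT box, CCAAT or its reverse complement ATTGG, which 32.0% of all 35116 promoter windows hold.
COL4A5: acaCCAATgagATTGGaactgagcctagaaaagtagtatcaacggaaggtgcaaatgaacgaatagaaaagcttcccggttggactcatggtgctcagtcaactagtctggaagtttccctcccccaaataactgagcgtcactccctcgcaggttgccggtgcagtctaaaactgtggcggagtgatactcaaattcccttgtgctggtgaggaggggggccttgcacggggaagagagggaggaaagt
COL4A6: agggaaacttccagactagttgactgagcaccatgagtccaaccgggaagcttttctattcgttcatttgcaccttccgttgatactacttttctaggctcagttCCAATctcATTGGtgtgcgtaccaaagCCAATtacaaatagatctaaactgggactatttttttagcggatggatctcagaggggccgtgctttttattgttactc
The COL4A5 window held 2 such boxes and the COL4A6 window 3, of which 2 are the same bases read from the other strand. The ratio of COL4A5 to COL4A6 per kb stayed within 1.23 to 2.07 over the 28 libraries. Its mean was 1.60 in BPA, 1.64 in TCDD and 1.84 in TBTCl, against 1.85 in DMSO. TBTCl replicate 4 had the lowest level of both chains, at 16.0 CPM for COL4A5 and 7.03 CPM for COL4A6.

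**Figure D4:**
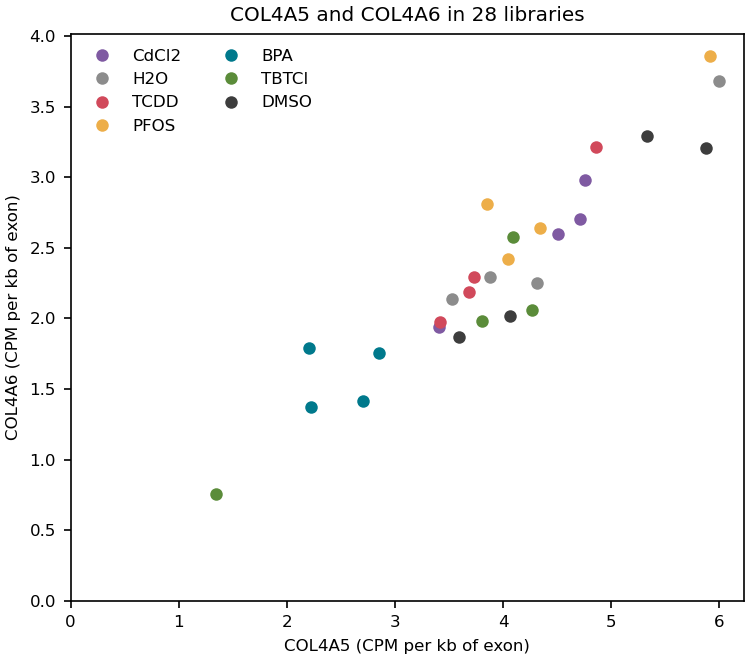
Level of COL4A6 against COL4A5, in CPM per kb of exon, with a point for each of 28 libraries coloured by group. The BPA libraries and TBTCl replicate 4 lie at the low end of both axes, and the ratio of the chains ranges from 1.23 to 2.07.

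Among the laminins, 2 alpha chains fell in BPA and the 4 abundant chains were not called with all libraries in the fit. LAMA5 had 354, 296, 375 and 402 CPM in BPA, against 387, 458, 555 and 459 CPM in DMSO (log2 fold change -0.38 ± 0.22, edgeR adjusted p = 0.180). With only the BPA and DMSO libraries in the fit LAMA5 was called lower in BPA, at -0.40 (edgeR adjusted p = 0.0313). LAMB1 had 341, 286, 360 and 398 CPM in BPA, against 365, 336, 356 and 395 CPM in DMSO, with an interval of -0.38 to 0.25 for the log2 fold change (95%). Both chains overlapped between the groups. LAMB2 had 237, 231, 265 and 264 CPM in BPA, against 185, 216, 289 and 213 CPM in DMSO. LAMC1 had 232, 233, 221 and 254 CPM in BPA, against 270, 264, 245 and 301 CPM in DMSO, with an interval of -0.66 to 0.25. The edgeR adjusted p of LAMB1, LAMB2 and LAMC1 was 0.504 or more.

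The leading collagens COL9A3 and COL18A1 were not called in BPA either. COL9A3 had 217, 174, 242 and 276 CPM in BPA, against 226, 209, 236 and 293 CPM in DMSO. COL18A1 had 265, 191, 278 and 411 CPM in BPA, against 324, 343, 402 and 399 CPM in DMSO (log2 fold change -0.36 ± 0.17, edgeR adjusted p = 0.108). COL18A1 was called lower in BPA under upper-quartile scaling, at -0.49 (edgeR adjusted p = 0.0290), and with H2O in place of DMSO, at -0.50 (edgeR adjusted p = 0.0301).

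LAMA3, the alpha chain of the laminin that anchors epidermis, had 3.41, 4.04, 1.69 and 2.02 CPM in BPA, against 8.19, 12.0, 6.75 and 4.95 CPM in DMSO. The groups did not overlap, and the log2 fold change was -1.51 ± 0.50 (edgeR adjusted p = 0.0210). Its partner LAMB3 was not called, at 1.07 ± 0.641 CPM in BPA and 1.16 ± 0.499 CPM in DMSO. The LAMA3 call was lost without DMSO replicate 2, BPA replicate 3 or BPA replicate 4, and the log2 fold change lay between -1.74 and -1.24 over the 8 fits that left out a library.

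LAMA1, the alpha chain of embryonic basement membranes, had 6, 2, 7 and 2 counts in BPA, against 20, 155, 64 and 22 counts in DMSO. In CPM, BPA reached at most 0.232, below the other 24 libraries, the lowest of which had 0.298. The log2 fold change was -3.44 ± 0.86 (edgeR adjusted p = 0.00305), and 10.3% of its exon bases are shared with an antisense gene. No source used here says whether the counting was stranded.

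With the replicate number as a block, BPA called 15 chains in place of 11, while the share of all tested genes called was 42.9% in place of 35.0%. LAMC3 (0.52, edgeR adjusted p = 0.0300), COL1A1 (-0.90, edgeR adjusted p = 0.0234), COL8A2 (-1.01, edgeR adjusted p = 0.0473) and COL18A1 (-0.38, edgeR adjusted p = 0.0300) were the additional log2 fold changes past the threshold. COL18A1 shares 16.4% of its exon bases with SLC19A1 on the other strand.

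**Figure D5:**
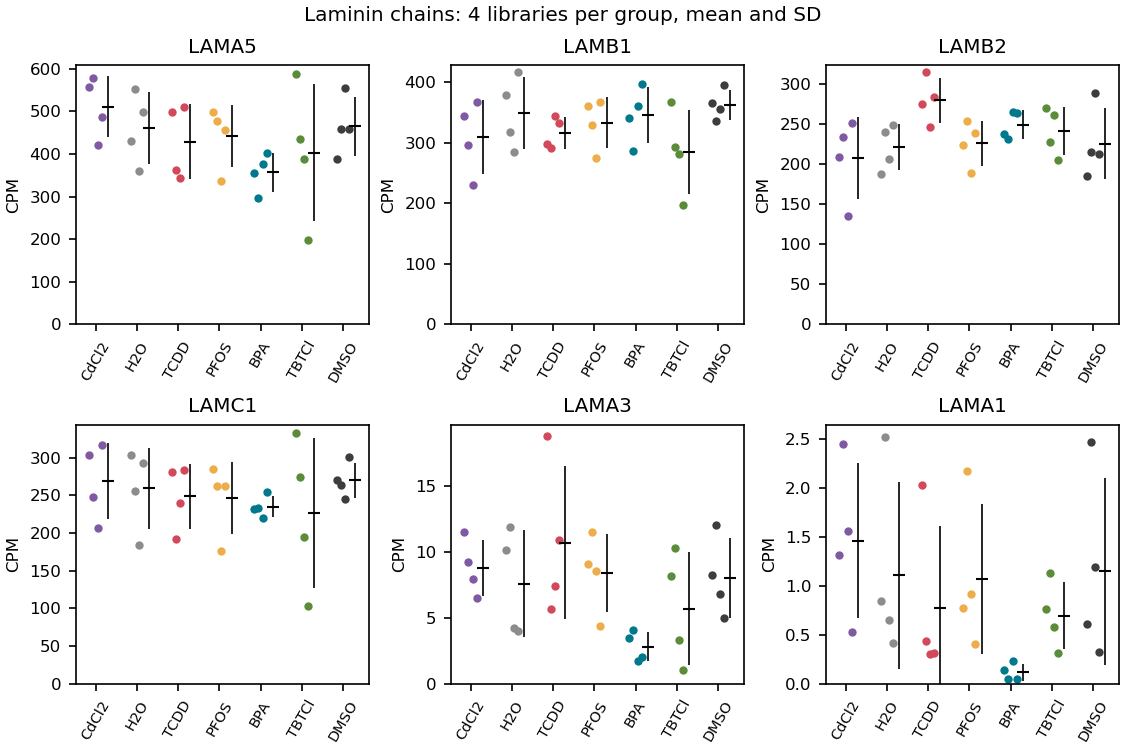
CPM of 6 laminin chains in the 7 groups, with a point per library and the mean and SD beside the points. LAMA5, LAMB1, LAMB2 and LAMC1 overlap between BPA and DMSO, whereas the BPA libraries lie below the DMSO libraries for LAMA3 and LAMA1.

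No chain was called with CdCl2, PFOS or TBTCl against its vehicle, or with DMSO against H2O. With CdCl2 against H2O, edgeR's quasi-likelihood test and DESeq2 called 0 of 30 chains, where edgeR called 0.0212% of all tested genes (all higher in CdCl2) and DESeq2 0.0796%. An unadjusted p under 0.05 was reached by 4 chains. COL2A1 averaged 80.6 ± 20.8 CPM in CdCl2 and 122 ± 34.2 CPM in H2O, COL26A1 13.1 ± 4.01 CPM in CdCl2 and 19.7 ± 4.32 CPM in H2O, COL4A2 2.01 ± 0.813 CPM in CdCl2 and 1.07 ± 0.443 CPM in H2O, and LAMA2 0.235 and 0.111 CPM.

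With PFOS against DMSO both tools called 0 chains, with 0.0159% of all tested genes called by edgeR and 0.674% by DESeq2, and 0 chains had an unadjusted p under 0.05. The groups did not overlap for 1 chain, COL13A1, at 0.0340 to 0.153 CPM in PFOS, against 0 to 0.0290 CPM in DMSO, where 4.94% of all tested genes did not overlap.

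With TBTCl against DMSO both tools called 0 chains, with 0.143% of all tested genes called by edgeR (0.106% higher, 0.0371% lower in TBTCl) and 1.41% by DESeq2, and 3 chains had an unadjusted p under 0.05. COL18A1 averaged 472 ± 27.2 CPM in TBTCl and 367 ± 39.5 CPM in DMSO without overlap, COL16A1 31.0 ± 4.73 CPM in TBTCl and 21.5 ± 5.07 CPM in DMSO, and LAMB1 285 ± 69.5 CPM in TBTCl and 363 ± 24.6 CPM in DMSO. No overlap was seen for 2 chains, COL18A1 and COL9A2, and for 4.87% of all tested genes. TBTCl replicate 4 was lowest of its group for LAMB1 (197 CPM), LAMA5 (199 CPM), LAMC1 (103 CPM) and COL27A1 (98.1 CPM), and no chain was called without it.

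With DMSO against H2O both tools called 0 chains, and edgeR called 0 genes in all and DESeq2 0.00531%. COL16A1 (21.5 ± 5.07 CPM in DMSO and 29.4 ± 7.29 CPM in H2O) and COL7A1 (17.6 ± 0.646 CPM in DMSO and 24.8 ± 6.45 CPM in H2O) had an unadjusted p under 0.05.

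BPA and TCDD were also set against each other, though at unlike doses (75 µM and 100 nM), so the values describe these exposures and not the compounds at a matched dose. BPA differed from TCDD in 14 of 30 chains, 3 higher and 11 lower in BPA, with 38.3% of all tested genes called (17.8% higher, 20.4% lower in BPA). The median log2 fold change was -0.45 over the chains and -0.05 over all tested genes. COL27A1 averaged 110 ± 23.4 CPM in BPA and 461 ± 77.6 CPM in TCDD, a log2 fold change of -2.06 ± 0.27 (edgeR adjusted p = 1.17e-06). COL16A1 was higher in BPA, by 1.32 ± 0.21 (edgeR adjusted p = 2.55e-05), and COL6A2 by 1.82 ± 0.38 (edgeR adjusted p = 0.000533).

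COL13A1 (-3.56 ± 0.55), COL8A2 (-2.35 ± 0.46), COL2A1 (-1.08 ± 0.22) and LAMA3 (-1.93 ± 0.50) were lower in BPA than in TCDD on the log2 scale, each with an edgeR adjusted p of 0.00371 or less. For COL13A1, which passed the filter on low counts mainly through its TCDD libraries, this difference was in part built in. Without BPA replicate 2 the count was 9. The comparisons of BPA and of TCDD with DMSO share the same 4 DMSO libraries.

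BPA against TBTCl (75 µM and 0.1 µM) gave 10 calls, 3 higher and 7 lower in BPA, with 34.8% of all tested genes called (16.7% higher, 18.1% lower in BPA); the count was 6 without BPA replicate 2. COL16A1 (1.52 ± 0.21 on the log2 scale), COL6A2 (2.14 ± 0.39) and LAMC3 (0.80 ± 0.25) were higher in BPA; LAMC3 lost its call without BPA replicate 2 or TBTCl replicate 4. TCDD against TBTCl (100 nM and 0.1 µM) gave 5 calls, all higher in TCDD, with 12.8% of all tested genes called (7.26% higher, 5.58% lower in TCDD), namely COL13A1, COL26A1, COL27A1, COL5A3 and COL8A2. That count was 3 without TCDD replicate 1, 2 or 4 or without TBTCl replicate 3 or 4. COL13A1 and COL5A3 passed the filter on low counts mainly through their TCDD libraries, so their calls against TBTCl were in part built in.

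The genes that modify, process, bind or degrade these chains were counted in the same fit. Of 21 tested collagen-modifying enzymes and chaperones, TCDD raised 0 and lowered 2, with a median log2 fold change of -0.13, and BPA raised 4 and lowered 4, with a median of -0.12. The called share was 9.52% in TCDD and 38.1% in BPA, near the 9.25% and 35.0% of all tested genes. PLOD2, the lysyl hydroxylase of telopeptides, averaged 92.1 ± 44.7 CPM in BPA and 254 ± 51.0 CPM in DMSO. P3H1, a prolyl 3-hydroxylase, averaged 88.6 ± 11.8 CPM in BPA and 148 ± 25.3 CPM in DMSO. PLOD3, a lysyl hydroxylase and glycosyltransferase, rose to 231 ± 4.82 CPM in BPA, against 147 ± 6.72 CPM in DMSO. TMEM38B, a channel subunit needed for collagen export, averaged 31.6 ± 2.14 CPM in BPA and 21.5 ± 3.28 CPM in DMSO. FKBP14, a chaperone of the endoplasmic reticulum, averaged 34.8 ± 4.38 CPM in TCDD and 50.3 ± 2.87 CPM in DMSO. COLGALT2, a collagen galactosyltransferase, averaged 10.1 ± 3.31 CPM in TCDD and 21.6 ± 5.87 CPM in DMSO.

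Of 13 tested genes of extracellular processing and crosslinking, TCDD raised 3 and lowered 1, and BPA raised 1 and lowered 2. The called share was 30.8% in TCDD, where 9.25% of all tested genes were called, and 23.1% in BPA, where 35.0% were. LOXL3, a lysyl oxidase-like crosslinking enzyme, averaged 22.7 ± 3.09 CPM in TCDD and 2.59 ± 1.22 CPM in DMSO (log2 fold change 3.12 ± 0.49, edgeR adjusted p = 5.27e-05). LOXL2 averaged 7.59 ± 2.05 CPM in TCDD and 2.35 ± 1.17 CPM in DMSO. BMP1, which cleaves procollagen ends, averaged 27.5 ± 2.97 CPM in TCDD and 20.0 ± 0.980 CPM in DMSO. LOXL4 averaged 59.3 ± 9.31 CPM in BPA and 19.6 ± 4.57 CPM in DMSO, and MEP1A, a meprin protease, 7.98 ± 5.00 CPM in BPA and 15.0 ± 3.72 CPM in DMSO. The list's median log2 fold change was 0.10 in TCDD and 0.09 in BPA.

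Of 11 tested basement membrane partners, TCDD called 0 (2 with an unadjusted p under 0.05, 0 by DESeq2) and BPA lowered 2, AGRN (336 ± 63.8 CPM in BPA and 503 ± 90.2 CPM in DMSO) and NTN4 (14.0 ± 1.66 CPM in BPA and 29.9 ± 9.74 CPM in DMSO), an agrin and a netrin that bind laminins. In BPA 18.2% of these partners were called, where 35.0% of all tested genes were. Their median log2 fold change was -0.23 in TCDD and -0.43 in BPA. Of 16 tested receptors, TCDD raised 1 and lowered 1, and BPA raised 6 and lowered 1. That is 12.5% in TCDD and 43.8% in BPA, against 9.25% and 35.0% of all tested genes. The collagen-binding integrin chain ITGA1 averaged 68.8 ± 17.9 CPM in TCDD and 37.1 ± 6.73 CPM in DMSO, and the syndecan SDC1 176 ± 15.9 CPM in TCDD and 252 ± 31.1 CPM in DMSO. ITGA2, another collagen-binding chain, averaged 154 ± 16.9 CPM in BPA and 81.5 ± 10.6 CPM in DMSO, and the laminin-binding ITGA6 208 ± 24.6 CPM in BPA and 120 ± 20.9 CPM in DMSO. ITGA3, a laminin-binding chain, averaged 6.17 ± 2.40 CPM in BPA and 2.49 ± 0.935 CPM in DMSO. The list's median log2 fold change was -0.04 in TCDD and -0.06 in BPA. BCAM, a receptor for LAMA5, averaged 235 ± 82.2 CPM in BPA and 395 ± 19.3 CPM in DMSO.

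Of 17 tested matrix-degrading proteases and inhibitors, TCDD raised 3 and lowered 2, and BPA raised 6 and lowered 1. Called were 29.4% in TCDD and 41.2% in BPA, against 9.25% and 35.0% of all tested genes. The median log2 fold change of this list was 0.13 in TCDD and 0.46 in BPA. The lysosomal protease CTSB averaged 1847 ± 76.6 CPM in BPA and 482 ± 25.1 CPM in DMSO (log2 fold change 1.94 ± 0.11, edgeR adjusted p = 1.95e-11). The inhibitor TIMP2 averaged 104 ± 13.4 CPM in TCDD and 134 ± 24.4 CPM in BPA, against 64.7 ± 4.85 CPM in DMSO. TIMP1 averaged 68.1 ± 18.5 CPM in BPA and 25.2 ± 3.32 CPM in DMSO. The gelatinase MMP2 moved in opposite directions, at 2.83 ± 0.863 CPM in TCDD and 11.6 ± 2.23 CPM in BPA, against 5.92 ± 1.06 CPM in DMSO. Over the 5 lists together, edgeR called 0 of 78 tested genes in CdCl2 (10 with an unadjusted p under 0.05, 0 by DESeq2), PFOS (3 and 0), TBTCl (11 and 1) and DMSO against H2O (2 and 0).

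The stellate cell and fibroblast markers summed to 40.8 to 48.0 CPM in TCDD and 39.5 to 48.0 CPM in BPA, against 50.0 to 58.0 CPM in DMSO. ACTA2 and PDGFRB led that sum, PDGFRB at 5.43 ± 2.84 CPM in TCDD and 9.02 ± 4.49 CPM in BPA, against 15.0 ± 4.76 CPM in DMSO. Of the 4 tested markers of this list, edgeR called LUM higher and PDGFRB lower in TCDD. In BPA it called RGS5 higher, where DESeq2 called 0. That is 50.0% in TCDD and 25.0% in BPA, against 9.25% and 35.0% of all tested genes. LUM was at 0 in CdCl2, and the highest log2 fold change of the list in TCDD was 6.41. LUM may have passed the filter on low counts mainly through its TCDD libraries. Its call and the list's share in TCDD may therefore be in part built in. The list's median log2 fold change was 0.07 in TCDD and 0.22 in BPA. The hepatocyte markers summed to 29979 to 45417 CPM in TCDD and 24616 to 38594 CPM in BPA, against 35093 to 65055 CPM in DMSO. Of these 8 markers edgeR called 0 in TCDD. In BPA it called HNF4A higher and AFP and FGB lower, or 37.5%, near the 35.0% of all tested genes. Biliary markers summed to 735 to 818 CPM in TCDD and 509 to 558 CPM in BPA, against 806 to 953 CPM in DMSO. Leukocyte markers summed to 1582 to 3131 CPM in TCDD and 675 to 1501 CPM in BPA, against 1874 to 2468 CPM in DMSO, nearly all of it LYZ, with PTPRC at 0 in BPA and DMSO. Their part in the changes of the chains was not tested.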

How the data were processed

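Poly(A)-selected RNA of 28 libraries was sequenced in directional libraries, per the labels. The values are read counts per gene as deposited by the authors, and the submitters' processing notes list fastp, STAR, HTSeq, DESeq2 and GRCh38. Versions, annotation release and strand setting are not given in the sources read. From 63140 rows 63139 were kept, since the last has no line end, and GENCODE 29 gave gene type, exon length and position for 58126 identifiers. Genes were filtered with filterByExpr (minimum count 10), leaving 18849, scaled by TMM (factors 0.861 to 1.07) and fitted in edgeR 4.0.16 (quasi-likelihood, R 4.3.3) with all 28 libraries and 7 group means (21 residual degrees of freedom; biological coefficient of variation 22%). CPM are computed from these counts with TMM scaling and divided by union exon length where given per kb. An SE was obtained from the fold change and the root of its F statistic, and 95% intervals from 1.96 SE. DESeq2 1.42.0 was the other tool, and the scripts were tested on simulated counts. Floors of 3 counts cover counting error only.

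Chains called in a comparison with a mean of at least 5 CPM in either group were named with all library values, as were the 8 highest per kb in DMSO; other called chains are given by fold or range, and up to 4 genes per list. The members and lists were chosen with earlier results of these data known. Not every member is reported here by name. Alternatives were other scaling, no filter, DESeq2, 2-group fits, each library left out, the replicate block, and H2O in place of DMSO, the last chosen after seeing the data. Replicate numbers paired libraries (every correlation of deviations over 0.1) in CdCl2 with H2O, PFOS, BPA and TBTCl with DMSO, and DMSO with H2O, with lowest values of 0.123, 0.425, 0.173, 0.249 and 0.181; for TCDD with DMSO the lowest was -0.212, so the numbers did not pair there.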

Additional observations from a re-analysis of the deposited data

Results flagged for a closer look

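Of 147 sets of 4 libraries examined, 21 chains in 7 groups, 7 held a library far from the other 3, and chance flags about 1 in 20 such sets. COL11A2 had 0.427 CPM in CdCl2 replicate 3 and 1.01 to 1.04 CPM in the other 3. COL4A5 had 16.0 CPM in TBTCl replicate 4 and 45.1 to 50.6 CPM in the others. COL4A6 had 34.2 CPM in H2O replicate 2 and 19.9 to 21.3 CPM in the others. COL6A2 had 0.475 CPM in PFOS replicate 3 and 0.800 to 0.825 CPM in the others, and 0.565 CPM in H2O replicate 3 and 0.948 to 0.994 CPM in the others. COL9A3 had 311 CPM in PFOS replicate 4 and 203 to 213 CPM in the others. LAMA1 had 2.03 CPM in TCDD replicate 1 and 0.298 to 0.437 CPM in the others.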

How the results depend on the processing

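Over 703 alternative values of the called chains, 602 kept direction and call, 101 kept direction and lost the call, and 0 reversed. BPA kept COL11A2, COL16A1, COL27A1, COL2A1, COL4A5, COL5A2, COL6A2 and LAMA1 (8 of 11) in every alternative that gave a value, and TCDD kept COL13A1 and COL27A1 (2 of 9). With only the libraries of the 2 groups compared, the TCDD against TBTCl count was 3 in place of 5. There COL8A2 kept its direction and lost its call, for a cause that was not tested, and COL5A3 fell under the filter. In the 2-group fits with DMSO, COL13A1 in BPA and COL5A3 in TCDD also fell under the filter. Leaving out each library gave 4 to 7 calls for TCDD (9 with all), 9 to 11 for BPA (11), 9 to 14 for BPA against TCDD (14), 6 to 12 for BPA against TBTCl (10) and 3 to 5 for TCDD against TBTCl (5), and 0 to 0 for CdCl2, PFOS, TBTCl and DMSO. With the replicate block, TCDD had 11 calls (COL1A1 and COL4A2 added, all 9 kept), BPA 15, BPA against TCDD 21, BPA against TBTCl 11 and TCDD against TBTCl 7; the other 4 comparisons stayed at 0. The share of all genes called under the block was 14.4% in TCDD, 42.9% in BPA, 46.1% in BPA against TCDD, 42.5% in BPA against TBTCl and 19.0% in TCDD against TBTCl. With H2O in place of DMSO, TCDD had 6 calls and BPA 11, with COL13A1 lost and COL18A1 gained in BPA. Upper-quartile scaling moved the median of all genes in BPA by -0.13 on the log2 scale and gave 2239 higher and 4345 lower genes, in place of 3268 and 3320. Depth limits chains under about 0.215 CPM, the cutoff of the filter.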

Other observations

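Among the 35 expressed chains, some were highest in the same replicate number in most groups. COL27A1 and COL17A1 were highest in the library numbered 1 in 6 of 7 groups, COL4A2 and COL4A6 in number 2 in 6 of 7, and COL9A3 in number 4 in 6 of 7. LAMA1, LAMA3, COL16A1 and COL6A1 were highest in number 2, and COL2A1 and LAMB1 in number 4, in 5 of 7 groups each. How often this arises by chance was not tested. The ratio of COL9A3 to COL9A2 per kb averaged 7.38 in TCDD, 5.86 in BPA and 5.47 in TBTCl, against 5.62 in DMSO. The ratio of LAMB1 to LAMB2 per kb averaged 0.965 in TCDD, 1.17 in BPA and 0.987 in TBTCl, against 1.39 in DMSO, and neither ratio was tested. The untested chain LAMB4 had 4 counts over the 4 BPA libraries and 26 over the 4 DMSO libraries. The summed level of all 56 chains was 2592 to 2874 CPM in TCDD and 1801 to 2372 CPM in BPA, against 2272 to 2617 CPM in DMSO.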
